A study of Mus musculus with 4 samples.

Results

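The data were examined for 10 genes of the NRF2 and glutathione defence system, taken from the table by gene symbol and chosen with earlier results of these data known: *Nfe2l2*, *Nqo1*, *Gclc*, *Gclm*, *Gsr*, *Txnrd1*, *Srxn1*, *Mgst1*, *Gstm1* and *Gstm2*. All 10 were found among the 23920 genes of the expression table, and all 10 were among the 10763 genes that reached 1 FPKM (fragment counts scaled to transcript length and to sequencing depth) in at least 1 library. Bulk RNA sequencing was performed on bone marrow-derived macrophage-like cells (BMMs) of male C57BL/6 mice, cultured for 24 h, in 4 libraries with 1 per condition. The sample records give an age of 8 weeks, whereas the methods name younger mice for osteoclast cultures. *Stat5fl/fl* BMMs, whose floxed *Stat5a* and *Stat5b* are intact, received M-CSF (30 ng/mL) alone, M-CSF with RANKL (100 ng/mL), or both of these together with IL-3 (1 ng/mL). *Stat5* cKO BMMs, in which Cre under the interferon-inducible Mx1 promoter had removed both genes, received all 3 cytokines. According to the methods, mice of both genotypes had been injected with poly I:C to switch on this promoter, and all 4 cultures contained M-CSF. The number of mice behind each library is not given in the sources used here, and no library of *Stat5* cKO cells without IL-3 was analysed here.

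NRF2, the protein of *Nfe2l2*, is a transcription factor that KEAP1 holds in the cytoplasm and marks for degradation while cells are unstressed. Oxidants and electrophiles modify KEAP1, and NRF2 then enters the nucleus, pairs with small MAF proteins and binds antioxidant response elements of its target genes. These targets build and recycle glutathione, couple it to toxic compounds and keep thioredoxin reduced. Reactive oxygen species also act as signals in RANKL-treated osteoclast precursors, where NRF2 is known to restrain osteoclast formation.

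Because each condition has 1 library, the comparisons have no replicate check, and no test or p-value between conditions was computed. Ratios are differences of log2(FPKM + 1), a scale on which weakly expressed genes appear less different than they are, and genes at least 2-fold apart on this scale are counted as higher or lower. The ± beside a ratio is an approximate 95% half-width from counting error alone, derived from an estimated depth of 33.0 to 36.9 M fragments per library, and leaves out variation between cultures and mice. It was computed for the ratio of fragments without the added 1 FPKM, a difference that matters most for the weakly expressed *Gstm2*. *Stat5a* stood at 9.89, 10.8 and 12.0 FPKM in the *Stat5fl/fl* libraries and at 0.168 FPKM in the cKO library, and *Stat5b* at 10.8, 7.8, 8.86 and 0.191 FPKM, as the genotype labels give it. The osteoclast gene *Ctsk* stood at 3.6 FPKM under M-CSF, 338 under RANKL, 25.8 after adding IL-3, and 107 in cKO, and the macrophage gene *Csf1r* at 670, 227, 365 and 269 FPKM. Lists of 4 levels below follow this order of libraries. Neighbouring comparisons share a library: RANKL is part of the first and the second, and RANKL with IL-3 of the second and the third.

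Stretches upstream of the members' start sites that hold the letters of an antioxidant response element are shown first, since this is the element through which NRF2 is known to act. The search covered the 250 bases before each RefSeq start site on GRCm38.p6, on both strands, for TGACNNNGC and TGAGNNNGC. A start site was given for 8 of the 10 members and not for *Gclc* and *Gsr*, and 5 of these 8 held at least 1 match. Of all 27025 genes with a start site, 25.7% held a match of either form, 11.5% of the first and 16.3% of the second. Counted by start site, 5 of the 12 sites of the members held a match, beside 23.0% of all 32851 sites. Each line gives the strand that carries the element, 5′ to 3′, with the matched letters in capitals.
*Gclm*: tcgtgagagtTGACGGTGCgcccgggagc
*Mgst1*: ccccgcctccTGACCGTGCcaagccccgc
*Nfe2l2*: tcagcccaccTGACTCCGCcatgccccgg
*Srxn1*, nearer match: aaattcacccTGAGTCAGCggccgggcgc
*Srxn1*, farther match: ccagagaggaTGAGTCGGCtctcagtaga
*Txnrd1*: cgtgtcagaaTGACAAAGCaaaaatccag

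The *Gclm* stretch lies at chr3:122245413-122245441 on the minus strand, and its match begins 134 bases before the start site of the gene, which is on the plus strand. The *Mgst1* stretch lies at chr6:138140461-138140489 on the minus strand, 56 bases before 1 of its 2 RefSeq start sites and inside the gene as GENCODE draws it. The *Nfe2l2* stretch lies at chr2:75704885-75704913 on the minus strand, 240 bases before the start site. The *Srxn1* matches begin 45 and 158 bases before the start site, at chr2:152105469-152105497 on the plus strand and chr2:152105356-152105384 on the minus strand. The nearer one also spells TGAGTCA, the element of AP-1 factors. The *Txnrd1* stretch lies at chr10:82859104-82859132 on the minus strand, before 1 of 3 start sites and inside the gene. For TTCNNNGAA, a core element of STAT factors that reads the same on both strands, 1 of the 8 members, *Txnrd1*, had a match, and 8.13% of all genes did. A match describes these letters and was not tested as a binding site.

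RANKL was accompanied by lower levels of most members, with the largest differences in *Mgst1*, *Gclm* and *Gstm1*. Other genes of glutathione synthesis and conjugation, given below, did not share this direction as a group. Of the 10 members, 3 were at least 2-fold lower with RANKL than with M-CSF alone (*Mgst1*, *Gclm* and *Gstm1*) and 0 were higher, where 6.88% of all genes tested were lower, 5.44% higher and 12.3% in either direction. The median log2 ratio of the members was -0.76, beside 0.14 for all genes. When IL-3 was added to RANKL, 3 members (*Mgst1*, *Gclm* and *Gstm2*) were higher by 2-fold or more and 0 were lower, beside 6.11% of all genes higher, 3.47% lower and 9.58% in either direction. The median of the members was 0.37, against -0.15 for all genes. In the cKO library, *Mgst1*, *Gstm2* and *Gclm* were at least 2-fold below the *Stat5fl/fl* library given the same cytokines and 0 members were higher, where 4.28% of all genes were lower, 2.11% higher and 6.39% in either direction. The median was -0.33, against 0.13. Once libraries were scaled to a common median, 4, 4 and 3 members were 2-fold apart in either direction, beside 12.5%, 9.82% and 6.7% of all genes.

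**Figure D1:**
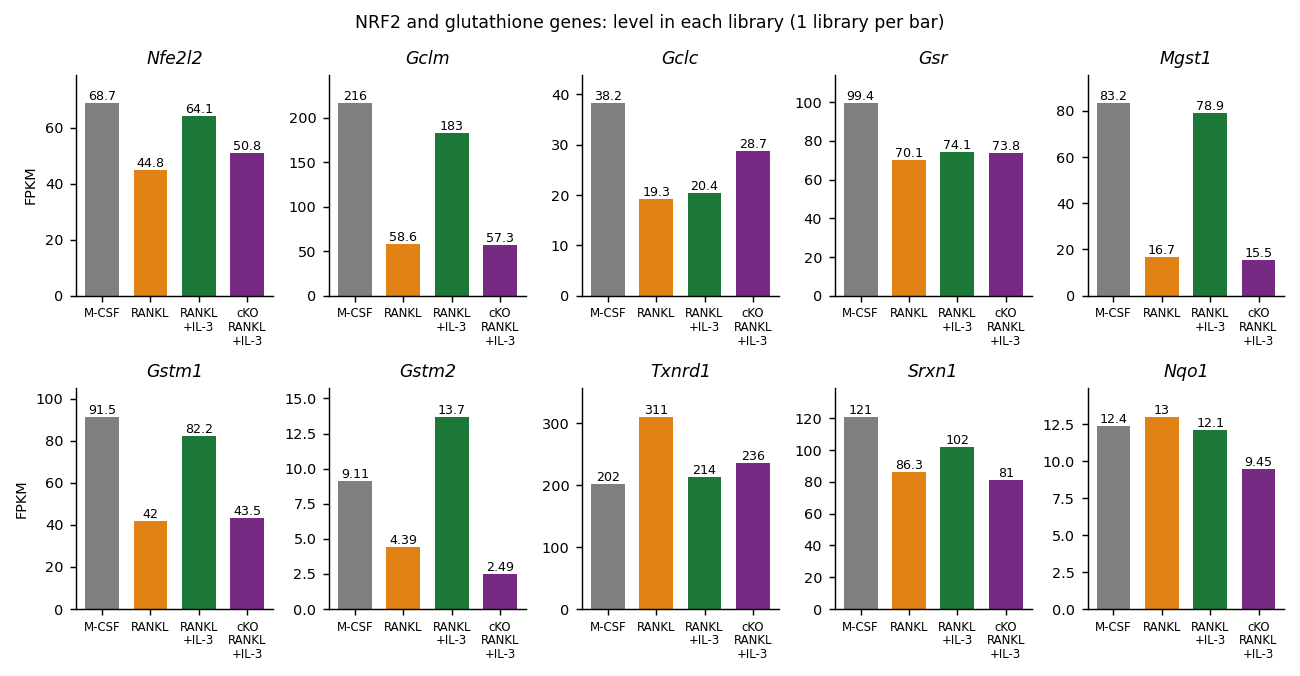
FPKM (vertical axis, from 0, a separate scale in each panel) of the 10 members by condition. Each bar is a single library, so no error can be drawn. *Gclm*, *Mgst1* and *Gstm1* are high with M-CSF and with RANKL and IL-3 in *Stat5fl/fl* cells and low in the other 2 libraries, whereas *Txnrd1* is highest with RANKL, at 311 FPKM.

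*Nfe2l2* itself (gene ID 18024, chromosome 2, 75675513 to 75704641 on GRCm38, the assembly also called mm10) stood at 68.7 FPKM under M-CSF, 44.8 under RANKL, 64.1 after adding IL-3, and 50.8 in cKO. Its level was thus highest with M-CSF and lowest with RANKL, with all 4 libraries within 1.53-fold of each other. The log2 ratio was -0.61 ± 0.06 for RANKL, 0.51 ± 0.06 after addition of IL-3 and -0.33 ± 0.06 for cKO, and none reached 2-fold. As NRF2 is controlled mainly through the stability of its protein, its mRNA is not a measure of its activity.

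Glutathione is made in 2 steps, and the first, rate-limiting step is carried out by glutamate-cysteine ligase, which joins a catalytic subunit (*Gclc*) with a modifier subunit (*Gclm*) that raises its efficiency. *Gclm* (14630, chromosome 3, 122245557 to 122270732) stood at 216 FPKM under M-CSF, 58.6 under RANKL, 183 after adding IL-3, and 57.3 in cKO. The library with IL-3 reached 84.8% of the M-CSF level, while RANKL alone and cKO were at 27.1% and 26.5% of it. The ratios were -1.87 ± 0.03, 1.63 ± 0.03 and -1.66 ± 0.03, at rank 193 from the lowest, 285 from the highest and 166 from the lowest of the 10763 genes. The exons of *Gclm* overlap *Gm17494* on the opposite strand and the pseudogene *Gm6061* on the same strand. Of the 50-base stretches of the *Gclm* transcript, 0.776% also occur, on the same strand, in transcripts of other genes. As use of strand is not given in the sources used here, reads of *Gm17494* cannot be told apart from those of *Gclm* where their exons overlap.

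*Gclc* (14629, chromosome 9, 77754535 to 77794485) took a different course from its partner. It stood at 38.2 FPKM under M-CSF, 19.3 under RANKL, 20.4 after adding IL-3, and 28.7 in cKO. Its level was lower in all 3 libraries with RANKL than with M-CSF, with the cKO library above both *Stat5fl/fl* ones. The ratio was -0.95 ± 0.07 for RANKL, just under 2-fold, 0.08 ± 0.08 after addition of IL-3 and 0.47 ± 0.07 for cKO. The FPKM of the modifier subunit divided by that of the catalytic subunit was 5.66 under M-CSF, 3.04 under RANKL, 9.0 after adding IL-3, and 2.0 in cKO, so the 2 subunit mRNAs were not kept in a fixed proportion.

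Glutathione reductase, encoded by *Gsr* (14782, chromosome 8, 33652523 to 33698163), returns oxidised glutathione to its reduced form with NADPH. It stood at 99.4 FPKM with M-CSF and at 70.1, 74.1 and 73.8 FPKM in the other 3 libraries. The level was lower in every library with RANKL, and these 3 lay close together. The ratio was -0.5 ± 0.05 for RANKL, while the ratios for IL-3 (0.08 ± 0.05) and cKO (-0.01 ± 0.05) were near 0.

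*Mgst1* (56615, chromosome 6, 138140316 to 138156755), which encodes a membrane-bound glutathione transferase and peroxidase, had the largest log2(FPKM + 1) ratio of the members in each comparison. It stood at 83.2 FPKM under M-CSF, 16.7 under RANKL, 78.9 after adding IL-3, and 15.5 in cKO, so that 2 libraries were high and 2 were low. The level was 4.98-fold lower with RANKL, 4.73-fold higher with IL-3 and 5.1-fold lower in cKO on the plain FPKM scale. The log2 ratios were -2.25 ± 0.12, 2.18 ± 0.12 and -2.28 ± 0.12, at rank 111 from the lowest, 128 from the highest and 74 from the lowest of all genes tested.

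*Gstm1* and *Gstm2* encode cytosolic glutathione transferases of the mu class. They lie near each other on the minus strand of chromosome 3, from 108012255 to 108017973 and from 107981702 to 107986453. *Gstm1* (14862) stood at 91.5, 42.0, 82.2 and 43.5 FPKM in the 4 libraries. The 2 high and 2 low libraries were the same as for *Mgst1*, with a smaller distance between them, and the ratios were -1.1 ± 0.08, 0.95 ± 0.08 and -0.9 ± 0.08. Scaling the libraries to a common median moved the IL-3 ratio to 1.05, which counts as 2-fold.

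*Gstm2* (14863) was the least abundant member in 3 of 4 libraries, at 9.11 FPKM under M-CSF, 4.39 under RANKL, 13.7 after adding IL-3, and 2.49 in cKO. Unlike for *Gstm1*, the highest library was the one with IL-3, at 150% of the M-CSF level, and cKO lay below RANKL alone. The ratios were -0.91 ± 0.27, 1.44 ± 0.25 and -2.07 ± 0.31, wider in error than for the other members because an estimated 98 to 536 fragments stood behind each level. With 0.1 FPKM added in place of 1, the RANKL ratio was -1.04, and the cKO ratio of -2.41 passed that of *Mgst1* (-2.34). On the plain FPKM scale too, the cKO difference of *Gstm2* was the larger, at 5.48-fold against 5.1-fold. Of the 50-base stretches of the *Gstm1* transcript, 23.1% also occur in transcripts of other genes, mostly *Gstm2-ps1*. For *Gstm2* the share was 9.36%, mostly with *Gm12499*. The split of the reads that fall in such shared stretches is uncertain.

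**Figure D2:**
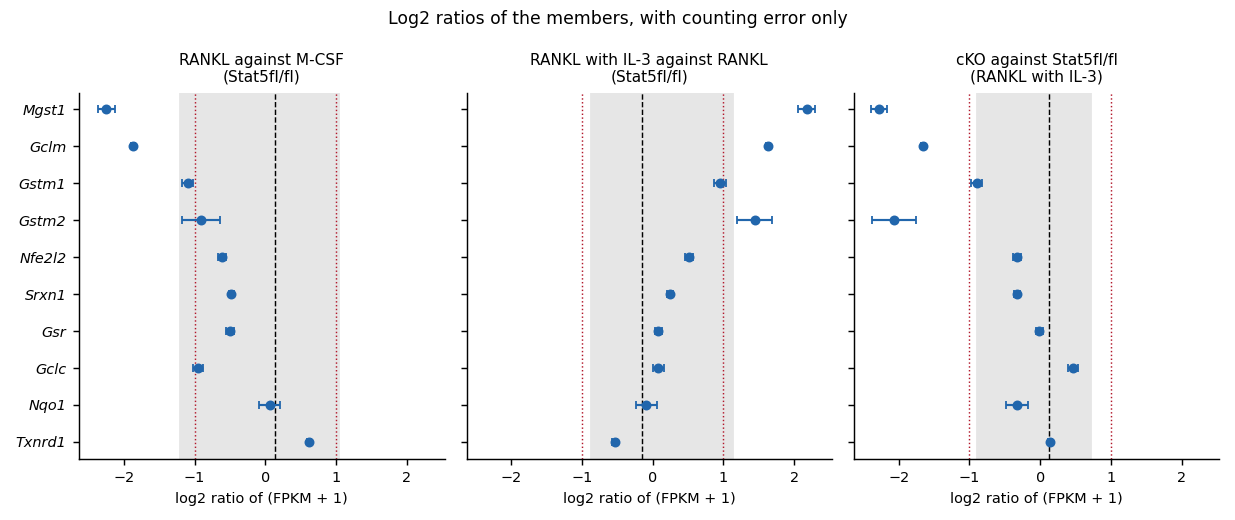
Log2 ratio of (FPKM + 1) of each member (horizontal axis) in the 3 comparisons. Points are single ratios, bars the approximate 95% interval from counting error alone, the dashed line the median of all 10763 genes, the grey band their 5th to 95th percentile and the dotted lines 2-fold. *Mgst1* and *Gclm* lie outside the band in all 3 comparisons, and *Gstm2* lies outside it for IL-3 and cKO.

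*Txnrd1* (50493, chromosome 10, 82833951 to 82897712) encodes the cytosolic reductase that keeps thioredoxin reduced. It stood at 202 FPKM under M-CSF, 311 under RANKL, 214 after adding IL-3, and 236 in cKO. It was the only member higher with RANKL by more than counting error, at 0.62 ± 0.03, and the only one below the median of all genes with IL-3, at -0.54 ± 0.03, and its cKO ratio of 0.14 ± 0.03 was close to the median of all genes. *Txnrd1* made up 21.4% of the summed FPKM of the 10 members with M-CSF and 46.7% with RANKL. Its share was 25.3% after adding IL-3 and 39.4% in cKO.

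*Txnrd1* was the 1 member with several transcripts in the table, 4 in number. The most abundant transcript held 60.9% to 65.0% of its FPKM and the next 34.2% to 37.4%, and each of the other 2 held under 1% in every library. Both abundant transcripts were higher with RANKL than with M-CSF, at 196 against 131 FPKM and at 110 against 68.9 FPKM. The pattern of the gene was therefore seen in both, although the split of reads between transcripts is the software's estimate.

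*Srxn1* (76650, chromosome 2, 152105516 to 152111376) encodes sulfiredoxin, which repairs over-oxidised peroxiredoxins. It stood at 121 FPKM under M-CSF, 86.3 under RANKL, 102 after adding IL-3, and 81.0 in cKO. The order of the libraries was that of *Gclm*, within a range of only 1.5-fold. The ratios were -0.48 ± 0.04, 0.24 ± 0.04 and -0.33 ± 0.04.

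*Nqo1* (18104, chromosome 8, 107388225 to 107403206), which encodes a quinone reductase and is widely used as a readout of NRF2 activity, varied least. It stood at 12.4, 13.0, 12.1 and 9.45 FPKM in the 4 libraries. The ratios for RANKL (0.06 ± 0.15) and for IL-3 (-0.09 ± 0.15) lay within counting error of 0, and the sign of the first turned when libraries were scaled to a common median (-0.03). The cKO ratio was -0.33 ± 0.16. At its depth of 541 to 702 estimated fragments a difference of the size seen for *Gstm1* would lie well outside the counting interval.

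RANKL against M-CSF and cKO against *Stat5fl/fl* share no library. *Gclm* and *Mgst1* were at least 2-fold lower in both, that is 2 of 10 members, beside 2.2% of all genes tested, and 0 members were higher in both, beside 1.56%. *Gclc* stood apart, with a lower level in the first (-0.95) and a higher level in the second (0.47).

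**Figure D3:**
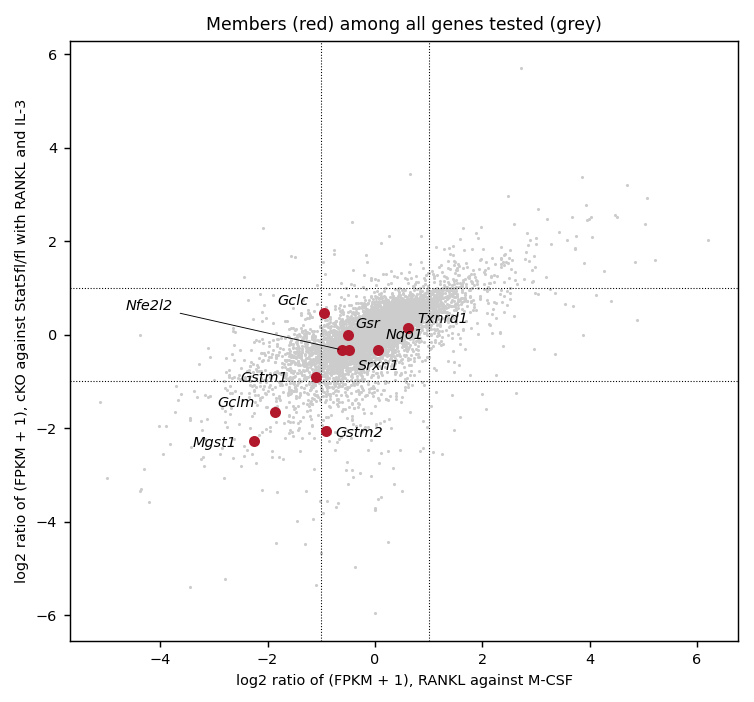
Log2 ratio of (FPKM + 1) of cells given RANKL or M-CSF alone (horizontal) and of cKO or *Stat5fl/fl* cells given all cytokines (vertical), 2 comparisons without a common library. Grey points are the 10763 genes, red points the members and dotted lines 2-fold, and *Gclm* and *Mgst1* lie in the lower left corner, at least 2-fold lower in both.

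For the 4 members at least 2-fold apart in any comparison, the nearest genes were sought by the distance between their 3 log2 ratios, over the 4 libraries and 8146 other genes with at least 5 FPKM. The gene nearest to *Mgst1* was *Ccr2*, a receptor for monocyte-attracting chemokines, at 49.2, 8.59, 46.6 and 7.66 FPKM in the 4 libraries (distance 0.27), followed by *Cd84* (0.34) and *Tbxas1*, the gene of thromboxane synthase (0.36). The nearest to *Gclm* was *Rnase6*, an antimicrobial ribonuclease gene, at 11.6, 2.07, 8.29 and 2.18 FPKM (0.21), followed by *Rxra* (0.28) and *Arhgap25* (0.28). *Gstm1* was nearest to *Blvrb*, the gene of a biliverdin reductase, at 254, 116, 237 and 126 FPKM (0.07). *Gstm2* was nearest to *Mapkapk3*, a kinase gene, at 12.2, 7.83, 24.0 and 4.94 FPKM (0.33). With 4 values per gene such a likeness is a description only.

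Of 11 tested partners and regulators of NRF2, 0 were 2-fold apart on the log2(FPKM + 1) scale in any of the 3 comparisons, with medians of -0.07, 0.0 and 0.04. *Keap1*, the NRF2 inhibitor, stood at 19.6, 17.9, 18.0 and 19.9 FPKM in the 4 libraries, and *Bach1*, a repressor that competes for the same elements, at 13.2, 14.7, 12.8 and 15.8 FPKM. *Mafg*, a small MAF partner, stood at 38.0, 30.1, 30.1 and 30.3 FPKM. The largest ratios of the list were those of *Nfe2*, which encodes a transcription factor related to NRF2 and was low in abundance, at -0.67, 0.73 and -0.86. It stood at 3.52, 1.85, 3.73 and 1.6 FPKM, so that the IL-3 and cKO differences exceeded 2-fold in plain FPKM. The high and low libraries were those of *Mgst1*. The largest ratios among the more abundant genes were those of *Cul3*, the scaffold of the ligase that KEAP1 serves, at 0.45, -0.44 and 0.37.

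Among other known NRF2 targets, *Hmox1* was at least 2-fold lower both with RANKL and in cKO, like *Mgst1* and *Gclm*. It was the only 1 of 79 tested pathway genes outside the members to be so, beside 2.2% of all genes. Of 25 tested, 6 were lower and 0 higher with RANKL (median -0.43), 6 were higher and 0 lower with IL-3 (median 0.6), and 3 were lower and 0 higher in cKO (median -0.48). For this and the following lists, the shares of all genes were 6.88% lower and 5.44% higher with RANKL. They were 3.47% lower and 6.11% higher with IL-3, and 4.28% lower and 2.11% higher in cKO. *Hmox1*, the gene of haem oxygenase 1, showed the largest RANKL and IL-3 ratios of the list, at 521 FPKM under M-CSF, 78.7 under RANKL, 416 after adding IL-3, and 128 in cKO. *Slc7a11*, which imports the cystine used for glutathione synthesis, stood at 2.06 and 1.56 FPKM with M-CSF and with RANKL, 9.49 after adding IL-3, and 1.46 in cKO, so that it was high in 1 library. *Prdx1*, a peroxiredoxin gene, was among the most abundant, at 1647, 779, 2253 and 1147 FPKM. *Osgin1* stood at 12.1, 3.97, 9.45 and 5.7 FPKM, and *Me1*, the gene of malic enzyme 1, which supplies NADPH, at 10.3, 4.13, 5.8 and 4.99 FPKM. *Ephx1*, the gene of an epoxide hydrolase, was 2-fold lower in cKO, at 7.73 against 3.0 FPKM. The ferritin genes of this list are uncertain: 78.9% of the 50-base stretches of *Ftl1* occur in other genes, and *Fth1*, an abundant mRNA of macrophages, is listed at 0.226 to 1.41 FPKM.

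Glutathione transferases outside the members showed no common direction. Of 14 tested, 3 were higher and 0 lower with RANKL (median 0.15), 1 was lower and 0 higher with IL-3 (0.04), and 0 were apart in cKO (0.04). The 3 higher genes were those of the theta class. *Gstt1* stood at 0.171 FPKM under M-CSF, 23.8 under RANKL, 8.91 after adding IL-3, and 15.4 in cKO. *Gstt2* stood at 2.23, 13.5, 10.4 and 10.7 FPKM and *Gstt3* at 1.06, 8.89, 4.18 and 7.3 FPKM. All 3 were thus lowest with M-CSF and highest with RANKL alone, whereas *Gstm1* and *Mgst1* were highest with M-CSF. *Gstp1*, of the pi class, stood at 62.0, 38.1, 65.0 and 47.1 FPKM and shares 62.3% of its 50-base stretches with other genes, so its level is uncertain.

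Among 15 other tested glutathione enzymes, 1 was higher and 3 lower with RANKL (median 0.21), 1 higher and 1 lower with IL-3 (-0.1), and 0 apart in cKO (0.15). *Hagh*, the gene of glyoxalase II, was the higher one, at 16.5 FPKM under M-CSF, 58.9 under RANKL, 22.1 after adding IL-3, and 39.8 in cKO. *Glrx*, which encodes glutaredoxin, was lower with RANKL and higher with IL-3, at 245, 105, 219 and 164 FPKM, and the secreted peroxidase gene *Gpx3* stood at 34.0, 9.52, 17.0 and 9.03 FPKM. *Gpx1*, the main cytosolic glutathione peroxidase gene, ranged only from 668 to 901 FPKM. *Gss*, whose enzyme completes glutathione, stood at 12.4, 17.9, 16.6 and 16.9 FPKM.

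Of 13 tested thioredoxin and peroxiredoxin genes, a list that also holds *Prdx1*, *Prdx6* and *Txn1* of the list of NRF2 targets, 3 were lower and 0 higher with RANKL (median -0.08), 2 higher and 0 lower with IL-3 (-0.08), and 1 lower and 0 higher in cKO (0.05). *Sesn1*, the gene of a stress-induced sestrin, stood at 31.1, 6.63, 17.5 and 8.5 FPKM. *Txnip*, whose protein binds thioredoxin, stood at 126, 63.5, 125 and 61.1 FPKM. *Txn1*, thioredoxin itself, stood at 426, 652, 467 and 559 FPKM, so that it was highest in the same library as *Txnrd1*, its reductase.

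Superoxide dismutases and catalase turn superoxide and hydrogen peroxide into water and oxygen. Of 4 tested genes of this list, *Cat* was 2-fold lower with RANKL, at 227 and 96.9 FPKM, and *Sod1* was 2-fold lower after addition of IL-3 and 2-fold higher in cKO. The medians were 0.44, -0.09 and 0.02. *Sod1* stood at 451 FPKM under M-CSF, 736 under RANKL, 331 after adding IL-3, and 684 in cKO. Counted once each, 79 genes of the 6 lists were tested, of which 4 were higher and 12 lower with RANKL, 8 higher and 3 lower with IL-3, and 1 higher and 4 lower in cKO. The shares lower with RANKL (15.2%, beside 6.88% of all genes) and higher with IL-3 (10.1%, beside 6.11%) were above those of all genes. The other shares lay near or below them, at 5.06% higher with RANKL (beside 5.44%), 3.8% lower with IL-3 (beside 3.47%), and 5.06% lower (beside 4.28%) and 1.27% higher in cKO (beside 2.11%).

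**Figure D4:**
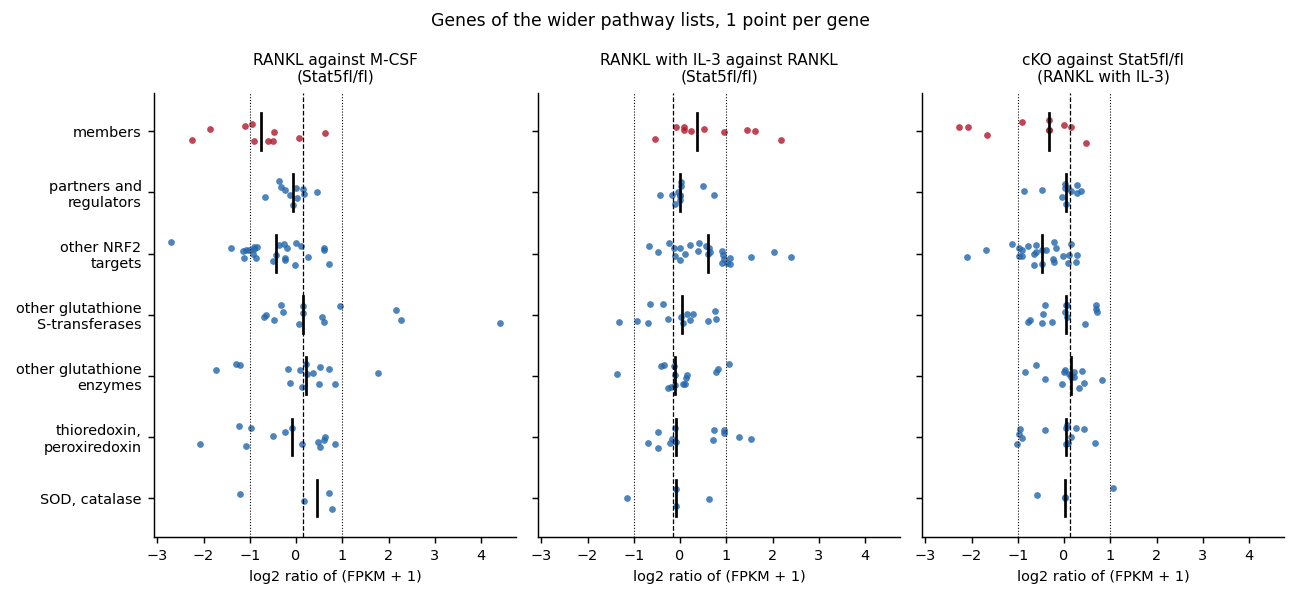
Log2 ratio of (FPKM + 1) of each tested gene (1 point per gene, horizontal axis) in the members (red) and 6 wider lists (blue) for the 3 comparisons. Black bars are list medians, dashed lines the median of all genes and dotted lines 2-fold, and the vertical scatter within a list has no meaning. With RANKL, *Gstt1* lies farthest right at 4.41 and *Hmox1* farthest left at -2.71.

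Markers of other cells moved with these comparisons. In bulk samples, fewer cells of a type and less RNA per cell cannot be told apart. The 9 measured neutrophil genes summed to 1332 FPKM under M-CSF, 764 under RANKL, 1118 after adding IL-3, and 796 in cKO, and all 9 were below 0 with RANKL (log2 ratios from -0.9 to -0.35). Their sum was thus high and low in the same libraries as *Mgst1* and *Gclm*, over a smaller range, though not every gene followed it. *S100a8* and *S100a9*, at 513 and 500 FPKM under M-CSF, made up most of the sum. *Ltf* (33.5, 19.4, 21.6 and 23.3 FPKM) and *Retnlg* (26.6, 15.9, 14.6 and 14.9 FPKM) were not lower in cKO. The sum of the 9 macrophage genes was high and low in the same libraries too, at 3835, 1264, 2411 and 1489 FPKM. Their median log2 ratios were -2.33, 2.19 and -1.86, a size close to that of *Mgst1*. Of these 9 genes, 6 (*Mertk*, *Fcgr1*, *C1qa*, *C1qb*, *C1qc* and *Mrc1*) were at least 2-fold lower both with RANKL and in cKO, beside 2.2% of all genes. *Cd14* differed, at 240, 93.9, 147 and 249 FPKM, with its highest level in cKO. *Cd68* varied little, at 972, 757, 810 and 726 FPKM. The 10 osteoclast genes summed to 45.9, 1277, 141 and 518 FPKM, with *Calcr* listed at 0. *Itgb3*, at a low level, went the other way, at 1.38, 0.818, 1.13 and 0.4 FPKM. The 10 genes of dendritic cells summed to 218, 144, 663 and 153 FPKM. Of 6 tested, 4 were 2-fold higher once IL-3 was added (6.11% of all genes) and 4 were 2-fold lower in cKO (4.28%). *Cd83* was highest with M-CSF, at 1.39, 0.446, 0.576 and 0.466 FPKM. *Itgax*, which encodes CD11c, stood at 7.78, 10.2, 99.7 and 9.95 FPKM, and the MHC class II-associated *Cd74* at 130, 83.4, 434 and 94.9 FPKM. *H2-Aa* and *H2-Ab1*, of MHC class II itself, were also highest with IL-3, at 68.7 and 56.8 FPKM. *Flt3*, *Zbtb46*, *Cd209a*, *Ccr7* and *Xcr1* reached at most 1.06 FPKM. The summed levels of mast cell and basophil (2.29 to 4.25 FPKM), erythroid (0.275 to 0.437), lymphocyte (1.37 to 4.92) and stromal genes (1.94 to 5.69) were low, with *Fcer1a*, *Cd3e* and *Cd3g* listed at 0. The part of these cells in the levels of the members was not tested.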

How the data were processed

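TruSeq RNA libraries were sequenced on a HiSeq2000. The authors aligned the reads to mm10 with TopHat2 2.0.13 and quantified transcripts as FPKM with Cufflinks 2.2.1, per the submitters' processing notes. The deposited table holds 1 value per RefSeq transcript and library without naming its unit, which was read as FPKM from the software and the values. Options of these tools: not given in the sources used here. The 33170 transcripts were summed per gene ID, and 46 small RNA genes above the minimum were left out. Each column was assigned through the sample description. Ratios were taken after adding 1 FPKM, over the 10763 genes that reached 1 FPKM in any library. Low values fall on multiples of what 1 fragment is worth, which gave an estimate of depth (genes with 1 transcript and 3000 nt or more). Of these values 71.7% to 73.5% were whole multiples to within 0.2 fragments, against 40.0% for evenly spread values. The depth was chosen for its fit to these same values, so the share is no independent check of it. Lengths, positions and shared 50-base stretches came from GENCODE M21, and start sites from RefSeq.

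The members and 14 further lists (6 of the pathway, 8 of cell type markers) were chosen with earlier results of these data known, and 183 of 189 list entries were in the table. Named were all members, *Stat5a* and *Stat5b*, up to 4 genes per pathway list and comparison with the largest ratios at 5 FPKM or more, and the 3 nearest genes of members 2-fold apart. Part of these was left out. *Keap1*, *Bach1*, *Mafg*, *Gpx1*, *Gss*, *Txn1*, *Ftl1*, *Fth1* and *Nfe2* were also named for their roles, and some cell type markers, with their values known. Ratio and count steps were tested on simulated data with counting error only and changes well above 2-fold. Genes near 2-fold were not covered by this. Alternatives were other pseudocounts, scalings, minima, thresholds and the most abundant transcript. Python 3.11.15, numpy 2.4.6, pandas 2.3.3 and matplotlib 3.10.9 were used.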

Additional observations from a re-analysis of the deposited data

How the results depend on the processing

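No paired analysis was possible because each condition has 1 library, and for the same reason no replicate could be left out. The counts of members at least 2-fold apart were 3 in each comparison. With a threshold of 1.5-fold the count for RANKL was 7 (29.5% of all genes), and with 4-fold it was 1 for RANKL (2.66%) and 1 for IL-3 (2.31%). Scaling to a common median gave medians of the members of -0.84 (RANKL), 0.47 (IL-3) and -0.42 (cKO), and scaling to a common upper quartile gave -0.83, 0.44 and -0.42. Both raised the counts for RANKL and IL-3 to 4, through *Gclc* and *Gstm1*. With 0.1 FPKM added in place of 1, the RANKL count was also 4 (16.7% of all genes), through *Gstm2*. All other counts and medians stayed within 1.5 times or within counting error of the reported ones. Of 180 single-gene values under the alternatives, 42 differed from the reported value by more than counting error and 0 values of 2-fold size changed sign. Depth limits *Gstm2* and *Nqo1* most.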
